A study of Mus musculus with 4 samples.

Results

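The genes described here build ribosomes: they encode RNA polymerase I and its factors, and the proteins that modify, cut and assemble ribosomal RNA into the small and the large ribosomal subunit. A list of 57 symbols was used, made up of Myc, RNA polymerase I genes and nucleolar assembly factors. Members were the genes with at least 1 probe set annotated to that symbol alone, and where a gene had several probe sets their mean was taken. Of the 57, 54 were measured, among 10923 genes in all; Dkc1, Nob1 and Utp14a had no such probe set and were not analysed here. The 54 members were read by 93 probe sets, 22 of them by 1 probe set each.

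RNA polymerase I transcribes the ribosomal RNA precursor in the nucleolus. Small nucleolar ribonucleoproteins (snoRNPs) then modify that precursor, and a large set of helicases, GTPases and scaffold proteins folds and cuts it into the subunits. Growing and dividing cells make more of this machinery, the transcription factor MYC is a known activator of its genes, and hepatocytes that re-enter the cell cycle after loss of liver tissue are a classical case.

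The animals were C57BL6/J males between 6 and 13 weeks old, and their liver RNA was measured on 4 Affymetrix Mouse Genome 430A 2.0 arrays. All mice received a single injection of siRNA in the carrier Invivofectamine 3.0, which takes siRNA to the liver, and 40% of the liver was removed 3 days later. Livers were taken 48 h after this partial hepatectomy, so both groups were regenerating and no liver without surgery was included. The siControl group (control siRNA) and the siOrm group (siRNA against Orm1, which encodes the acute phase protein orosomucoid) had 2 arrays each. The siOrm titles end in a number that might name the gene targeted, Orm1 or Orm2, rather than a replicate; since every other label of these arrays is shared, they were taken as replicates. The labels do not say whether an array stands for 1 mouse or for a pool, so the p-values reflect only how far these arrays scatter, and that scatter may be technical. Whole liver was used, so fewer cells of a type and less RNA per cell cannot be told apart.

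Values are on a log2 scale (base 2 assumed) with the median of the 4 arrays set to 0 for each probe set, and a difference is the siOrm mean minus the siControl mean. Because each probe set was centred on its own median, the middle arrays of a gene read by 1 probe set stand equally far above and below 0. Levels cannot be seen in such a table, so neither the brightness of a gene nor the presence of liver markers could be checked. The targeted gene Orm1 stood at 0.015 and 0.19 in siControl and at -0.24 and -0.015 in siOrm, a difference of -0.23 (SE 0.15; limma, adjusted p = 0.994, not past the threshold), so it checks the labels only weakly. Its near-identical relatives Orm2 and Orm3 differed by -1.08 (SE 0.34) and -0.91 (SE 0.34), and neither passed (limma, adjusted p = 0.994 for each). Both stood far higher in siControl 2, at 0.895 and 1.20, than in siControl 1, at 0.16 and 0.15. Over all genes the standard deviation of the difference between 2 arrays was 0.384 within siControl, 0.249 within siOrm and 0.233 to 0.428 between the groups.

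No member passed the test between the groups, but the members lay mostly on the low side in siOrm. In 27 of the 54 members, or 50%, each siOrm array was below each siControl array, an order called separated downwards here; 15.3% of all genes had it. The opposite order, separated upwards, held for 2 members, Imp3 and Nop10, or 3.7% against 17% of all genes. Neither order takes account of the size of the gap between the arrays. The difference was below 0 for 43 members, or 79.6%, against 47.8% of all genes. The median difference was -0.14 over the members and 0.0084 over all genes, so the typical shift was small. By limma with Benjamini-Hochberg adjustment over all 10923 genes, 0 members passed an adjusted p of 0.05, as did 0% of all genes, and the smallest adjusted p of a member was 0.994. At an unadjusted p under 0.05, 3 members lay lower, Nop58, Rrs1 and Ppan, against 2.58% of all genes, and 1 lay higher, Imp3, against 2.18%. Each of these members was read by 1 probe set. The standard error of a member's difference had a median of 0.145.

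**Figure D1:**
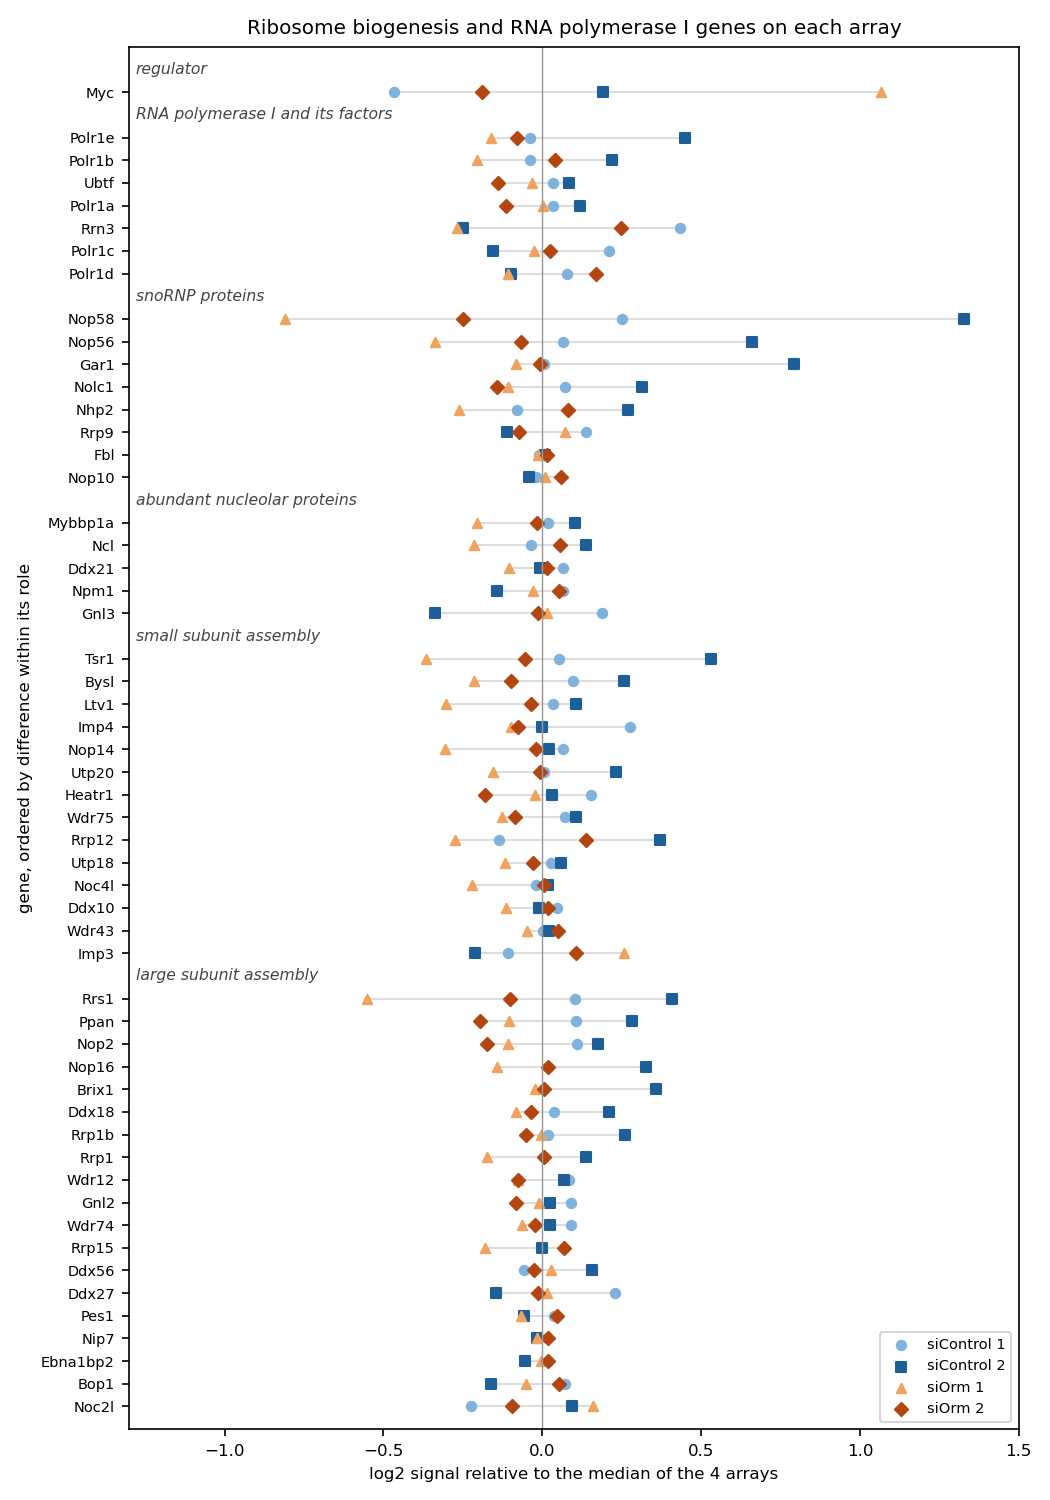
Log2 signal of the 54 measured members relative to the median of the 4 arrays (horizontal axis), with 1 symbol per array and genes ordered by difference within each role (vertical axis). Dark blue squares (siControl 2) lie farthest right and light orange triangles (siOrm 1) farthest left in many rows, most widely for Nop58, while Myc runs the other way.

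**Figure D2:**
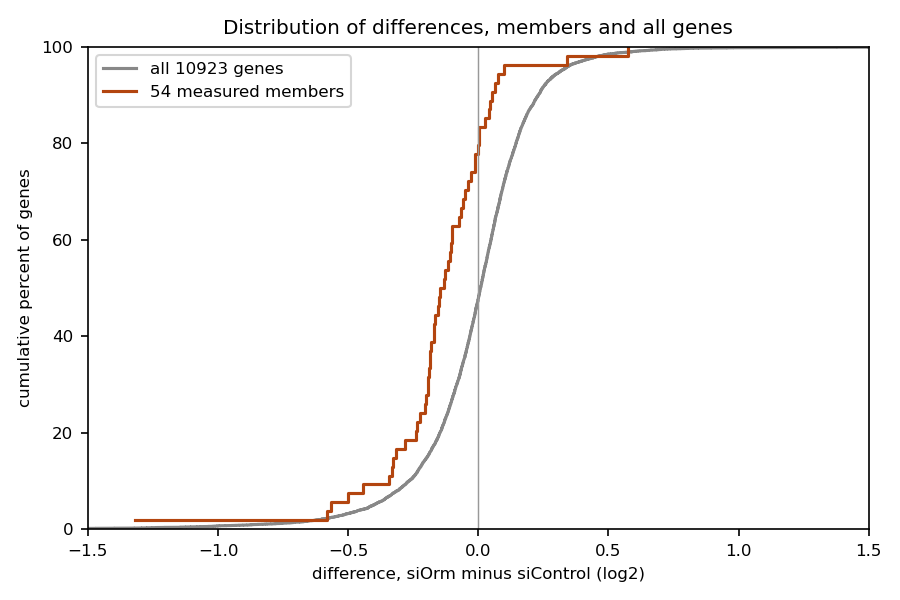
Cumulative percent of genes (vertical axis) against the difference, siOrm minus siControl, in log2 units (horizontal axis), for the 54 members and for all 10923 genes. The curve of the members lies to the left of the other over most of its course and passes 0 at 79.6% against 47.8%.

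Separate arrays carried this pattern unequally. The highest of the 4 values was that of siControl 2 for 28 members, or 51.9% against 28.1% of all genes, and the lowest was that of siOrm 1 for 33 members, or 61.1% against 28.4%. Both held together for 21 members, 38.9% against 13.8% of all genes. The mean over the members was 0.042 in siControl 1, 0.13 in siControl 2, -0.10 in siOrm 1 and -0.023 in siOrm 2, so the order of the groups was kept while siControl 1 and siOrm 2 stood close together. Macrophage markers also had their highest mean in siControl 2. Over 20 measured genes of 22 it was -0.29 in siControl 1, 0.69 in siControl 2, -0.018 in siOrm 1 and -0.043 in siOrm 2. Of the 20 genes, 18 were highest in siControl 2. The part of the macrophage markers in the result was not tested. The members were also measured with each array left out. Leaving out siControl 2 keeps siControl 1 as the only control, and the arrays kept still differ in their macrophage mean. Without siControl 2, the siOrm arrays lay below siControl 1 for 37 members, 68.5% against 36.8% of all genes, and the median difference was -0.092. Without siOrm 1, the remaining siOrm array lay below both siControl arrays for 27 members, 50% against 23.5% of all genes, and the median difference was -0.075. The counts were 34 members (63% against 33.8%) without siControl 1 and 42 members (77.8% against 32.4%) without siOrm 2.

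**Figure D3:**
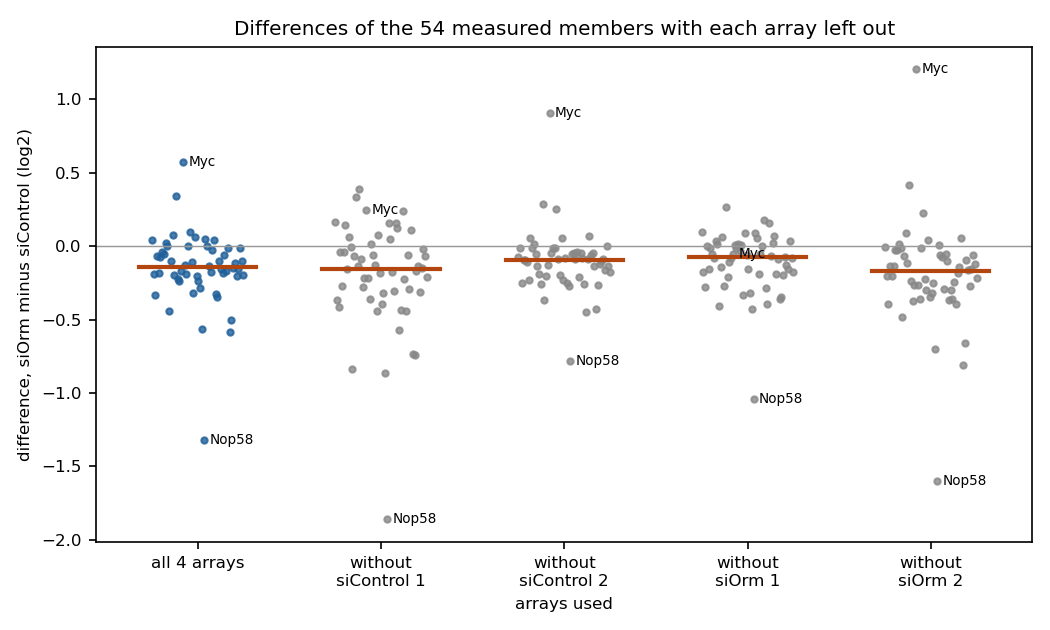
Difference of each of the 54 members in log2 units (vertical axis) with all 4 arrays and with each array left out (horizontal axis); each point is 1 gene and the bar is the median. The median runs from -0.17 without siOrm 2 to -0.075 without siOrm 1, Nop58 stays the lowest point, and Myc lies near 0 without siOrm 1.

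Myc, the regulator on the list, did not follow the genes it is known to activate. Myc was read by 1 probe set. Its siControl values were -0.47 and 0.19, and its siOrm values 1.07 and -0.19. The groups overlapped, and the highest value belonged to siOrm 1, the array that was lowest for 33 of the other 53 members. The difference was 0.58 (SE 0.44, 95% interval from -0.52 to 1.68; limma, adjusted p = 0.994). It was -0.051 without siOrm 1 and 1.20 without siOrm 2, so its direction rested on siOrm 1. The other genes of the MYC network, its partners and antagonists, had a median difference of -0.016 over 13 measured genes. Of these, 2 were separated downwards (15.4%, near the 15.3% of all genes) and 1 upwards (7.69% against 17%). Those of smallest p were Mlx at -0.18 (SE 0.13) and Mycn at -0.15 (SE 0.13), and neither passed (limma, adjusted p = 0.994).

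MYC binds the E-box CACGTG, which reads the same on both strands, so the windows from 250 bases before to 50 bases after the gene start were searched for it. RefSeq windows on GRCm38.p6 were found for 47 of the 54 measured members; Myc, Fbl, Npm1, Rrp12, Rrs1, Bop1 and Gnl2 had none in the table. The E-box was present for 10 of these 47, or 21.3%, against 11.3% of the 8767 measured genes with a window and 8.09% of all 27025 genes in the table. By window, since some genes have several starts, the shares were 17.9%, 9.47% and 7.15%. Among members separated downwards it was present for 7 of 25, namely Mybbp1a, Utp18, Utp20, Imp4, Ltv1, Tsr1 and Nop2, and among the other members for 3 of 22, Rrn3, Wdr43 and Pes1. The ETS motif CCGGAAG, on either strand, was present for 20 of the 47, or 42.6%, against 17.8% of the measured genes, with 10 of 25 and 10 of 22 in the same classes. These matches describe letters in a window and not sites of binding.

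The 250 bases before the start are shown for the members with an E-box there, and for Nop58, the member with the largest difference, which has none in its window. The start used for Nop58 lies inside the annotated gene, which begins at 59684961, so the last bases shown for it fall within the gene. Capitals mark the E-box, which begins 60 bases before the start in Nop2, 121 in Imp4, 20 in Utp18, and 215 and 48 in Rrn3.
Nop2, GRCm38.p6 chr6:125131633-125131882 (+ strand): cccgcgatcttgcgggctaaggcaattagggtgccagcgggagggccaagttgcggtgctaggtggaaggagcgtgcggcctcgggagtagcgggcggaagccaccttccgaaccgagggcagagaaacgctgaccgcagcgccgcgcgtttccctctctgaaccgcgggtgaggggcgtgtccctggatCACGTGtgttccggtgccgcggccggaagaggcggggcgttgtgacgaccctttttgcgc
Imp4, GRCm38.p6 chr1:34439579-34439828 (+ strand): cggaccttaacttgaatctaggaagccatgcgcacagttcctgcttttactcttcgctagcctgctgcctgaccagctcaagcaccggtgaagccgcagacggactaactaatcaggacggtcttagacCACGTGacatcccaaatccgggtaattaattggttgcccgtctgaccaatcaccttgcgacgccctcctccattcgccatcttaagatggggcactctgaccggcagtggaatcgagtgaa
Utp18, GRCm38.p6 chr11:93885767-93886016 (- strand): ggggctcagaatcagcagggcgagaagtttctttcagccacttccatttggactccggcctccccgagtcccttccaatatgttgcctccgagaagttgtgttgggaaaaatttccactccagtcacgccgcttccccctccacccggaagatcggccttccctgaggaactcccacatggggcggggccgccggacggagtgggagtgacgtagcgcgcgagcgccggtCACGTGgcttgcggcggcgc
Rrn3, GRCm38.p6 chr16:13780449-13780698 (+ strand): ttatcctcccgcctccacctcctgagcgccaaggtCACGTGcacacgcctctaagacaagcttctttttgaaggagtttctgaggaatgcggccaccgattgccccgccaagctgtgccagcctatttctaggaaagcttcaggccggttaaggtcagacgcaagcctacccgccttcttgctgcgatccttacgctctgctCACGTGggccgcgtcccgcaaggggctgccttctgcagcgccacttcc
Nop58, GRCm38.p6 chr1:59684756-59685005 (+ strand): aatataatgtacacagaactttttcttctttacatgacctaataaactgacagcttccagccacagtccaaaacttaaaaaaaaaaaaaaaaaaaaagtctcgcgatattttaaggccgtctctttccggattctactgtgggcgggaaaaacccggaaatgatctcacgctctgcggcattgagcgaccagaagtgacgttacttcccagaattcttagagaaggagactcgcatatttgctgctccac

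Nop2, Imp4, Utp18 and Nop58 were separated downwards in siOrm, and Rrn3 was not. A relation between the E-box and the differences was not tested, and bases outside the windows were not searched.

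Among the RNA polymerase I genes, 3 of 7 were separated downwards (42.9% against 15.3% of all genes) and 0 upwards. The median difference was -0.13, or -0.050 without siOrm 1, and the range ran from -0.33 to 0.040. Polr1e, a peripheral subunit of the enzyme, stood at -0.038 and 0.45 in siControl and at -0.16 and -0.079 in siOrm, so the arrays did not overlap and siControl 2 was far above the rest. Its difference of -0.33 (SE 0.19) shrank to -0.082 without siControl 2. Ubtf, which opens the ribosomal RNA gene promoter, was more even, at 0.034 and 0.085 against -0.034 and -0.14, a difference of -0.15 (SE 0.13). Polr1b, the other large subunit of the catalytic core, stood at -0.040 and 0.22 against -0.20 and 0.040. Its groups overlapped, and the difference was -0.17 (SE 0.16), or -0.042 without siControl 2 and -0.050 without siOrm 1. Polr1a, the largest subunit, stood at 0.034 and 0.12 against 0.0023 and -0.11, which gave -0.13 (SE 0.13). Its 3 probe sets disagreed and ranged from -0.46 to 0.14, so its value is uncertain. The initiation factor Rrn3 spread widely within both groups, at 0.43 and -0.25 against -0.27 and 0.25, and its difference of -0.10 turned to 0.24 without siControl 1. Polr1c and Polr1d, which RNA polymerase III shares, differed by -0.027 (SE 0.17) and 0.040 (SE 0.16). For Polr1d the arrays stood at 0.077 and -0.098 against -0.11 and 0.17, the largest positive difference of this group, and it was -0.048 without siControl 2 and -0.098 without siOrm 2.

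Of the 8 snoRNP proteins, 4 were separated downwards (50% against 15.3% of all genes) and 1 upwards (12.5% against 17%). They held the widest differences, with a median of -0.25. That median rested on siControl 2: it was -0.094 without that array, nearer to 0 than the small subunit group's -0.14, and -0.40 without siControl 1. Nop58 encodes a core protein of the box C/D particles that guide ribose methylation, and it was read by 1 probe set. It stood at 0.25 and 1.33 in siControl and at -0.81 and -0.25 in siOrm. The groups did not overlap, but the siControl arrays also lay far apart from each other. The difference of -1.32 (SE 0.38, 95% interval from -2.28 to -0.36) corresponds to 2.50-fold and was the only one above 2-fold among the members. It did not pass over all genes (limma, unadjusted p = 0.0154, adjusted p = 0.994), and it was -0.78 without siControl 2. Without siControl 1, where siControl 2 alone stands for its group, it was -1.86 and passed (limma, adjusted p = 0.0256), as did 2.1% of all genes and no other member.

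Nop56, the partner of Nop58 in the same particle, had the same order of arrays at a smaller scale, with 0.067 and 0.66 against -0.34 and -0.067. Its difference was -0.56 (SE 0.23), or -0.27 without siControl 2, and its 2 probe sets gave -0.75 and -0.38. Fibrillarin (Fbl), the methyltransferase of this particle, stood at -0.011 and 0.0089 against -0.013 and 0.015, a difference of 0.0026 (SE 0.12, 95% interval from -0.31 to 0.31). Within this core complex, then, Nop58 and Nop56 lay apart between the groups and Fbl had nearly equal values on the 4 arrays; the difference between the genes was not tested.

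Among proteins of the H/ACA particles, which guide pseudouridylation, Gar1 stood at 0.0058 and 0.79 against -0.082 and -0.0058. This rested on siControl 2: the difference was -0.44 (SE 0.27) with that array and -0.050 without it. Nhp2 overlapped between the groups and differed by -0.19 (SE 0.19). Nop10 stood at -0.020 and -0.042 against 0.0083 and 0.060, separated upwards by a difference of 0.065 (SE 0.13), which is smaller than its error. Nolc1, a chaperone of both kinds of particle, stood at 0.070 and 0.31 against -0.11 and -0.14. It differed by -0.32 (SE 0.14), its 3 probe sets all lay below 0, and without siControl 2 the value was -0.20. Rrp9, a protein of the particle that starts the cutting of the precursor, differed by -0.013 (SE 0.15).

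Of the abundant nucleolar proteins, 1 of 5 was separated downwards (20%, near the 15.3% of all genes) and 0 upwards. Their median was -0.074, or 0.0067 without siOrm 1. It was -0.14 without probe sets ending in _s_at, _x_at or _a_at, which can read more than 1 transcript. That setting drops Npm1 and Gnl3, the genes of this group with a positive difference. Mybbp1a, a MYB-binding nucleolar protein, stood at 0.017 and 0.10 against -0.21 and -0.017, a difference of -0.17 (SE 0.14) that was -0.077 without siOrm 1. Nucleolin (Ncl) stood at -0.036 and 0.14 against -0.22 and 0.057, with overlap. Its difference was -0.13 (SE 0.16), it was 0.0067 without siOrm 1, and its 4 probe sets ranged from -0.35 to 0.052. The helicase Ddx21 stood at 0.065 and -0.0080 against -0.10 and 0.014, which gave -0.074 (SE 0.13). Nucleophosmin (Npm1), a chaperone of ribosome export, stood at 0.065 and -0.14 against -0.029 and 0.053, a difference of 0.052 (SE 0.14) that turned to -0.052 without siControl 2. Both of its probe sets are of a kind that can read more than 1 transcript. Gnl3, which encodes nucleostemin, stood at 0.19 and -0.34 against 0.013 and -0.013. Its difference of 0.076 (SE 0.20) turned to -0.19 without siControl 2.

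Of the genes for small subunit assembly, 9 of 14 were separated downwards (64.3% against 15.3% of all genes) and 1 upwards (7.14% against 17%). The difference lay below 0 for 13 of 14 (92.9% against 47.8%), with a median of -0.19. The lowest value belonged to siOrm 1 for 12 of the 14, and without that array the median was -0.088. Tsr1, a late factor of the small subunit, stood at 0.053 and 0.53 against -0.37 and -0.053; the difference was -0.50 (SE 0.21), or -0.26 without siControl 2. Bysl, which encodes bystin, stood at 0.097 and 0.26 against -0.21 and -0.097. Its difference was -0.33 (SE 0.14), with -0.30 and -0.37 from its 2 probe sets. Ltv1, needed for the export and maturation of the small subunit, stood at 0.034 and 0.11 against -0.30 and -0.034, a difference of -0.24 (SE 0.15) that was -0.10 without siOrm 1.

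Imp3 ran against its group. It stood at -0.11 and -0.21 in siControl and at 0.26 and 0.11 in siOrm, without overlap, and differed by 0.34 (SE 0.14; limma, unadjusted p = 0.0483, adjusted p = 0.994). With any 1 array left out the difference lay between 0.27 and 0.42. IMP3 and IMP4 work in the same complex with MPHOSPH10 at the start of small subunit assembly. Imp4 lay the other way, at -0.22 (SE 0.15) and without overlap, or at -0.084 without siControl 1, and Mphosph10 differed by -0.083 (SE 0.12). Heatr1, Wdr75 and Wdr43, parts of a complex that joins the precursor as it is transcribed, differed by -0.19 (SE 0.14), -0.19 (SE 0.13) and -0.011 (SE 0.13). Nop14, Utp20 and Utp18, of the early small subunit particle, were separated downwards with -0.21, -0.20 and -0.12. Rrp12, Noc4l and the helicase Ddx10 overlapped between the groups, with -0.19, -0.11 and -0.066.

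For large subunit assembly, 10 of 19 genes were separated downwards (52.6% against 15.3% of all genes) and 0 upwards. The difference lay below 0 for 15 of 19 (78.9% against 47.8%), and the median was -0.10. Rrs1, which helps to place the smallest ribosomal RNA of the large subunit, stood at 0.10 and 0.41 against -0.55 and -0.10. The groups did not overlap, and the difference was -0.58 (SE 0.20; limma, unadjusted p = 0.0315, adjusted p = 0.994), or -0.36 without siOrm 1. Ppan, an early factor of the large subunit, stood at 0.11 and 0.28 against -0.11 and -0.20, a difference of -0.34 (SE 0.14; limma, unadjusted p = 0.0494, adjusted p = 0.994). Nop2, a methyltransferase of ribosomal RNA, stood at 0.11 and 0.17 against -0.11 and -0.18. Its arrays agreed best within the groups among these, and the difference was -0.28 (SE 0.13), or -0.25 to -0.32 with any 1 array left out. Nop16, which joins early particles of the large subunit, stood at 0.019 and 0.33 against -0.14 and 0.018. It differed by -0.24 (SE 0.16), or by -0.082 without siControl 2.

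The PES1, BOP1 and WDR12 proteins form a complex needed to mature the large subunit. Wdr12 differed by -0.15 (SE 0.12) and was separated downwards, but its probe sets gave -0.33 and 0.021. Pes1 differed by -0.0003 (SE 0.13) with probe sets at -0.091 and 0.090, and Bop1 by 0.045 (SE 0.15). The helicase Ddx18, the scaffold proteins Rrp1b and Rrp1, the GTPase Gnl2 and Wdr74 were separated downwards, with differences of -0.18, -0.17, -0.16, -0.10 and -0.10. For Rrp1 the order held by a very small margin, with siControl 1 at 0.0048 and siOrm 2 at 0.0041. Brix1 differed by -0.19, with overlap, and the helicases Ddx56 and Ddx27 and Rrp15 lay between -0.057 and -0.041. Noc2l had the largest positive difference of the group, 0.098 (SE 0.17), at -0.22 and 0.094 against 0.16 and -0.094, and it was -0.060 without siControl 1. Ebna1bp2 and Nip7 differed by 0.025 and 0.0021, and the 2 probe sets of Nip7 lay at -0.24 and 0.25.

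Probe sets of the same gene differed in sign for 9 of the 32 members read by 2 or more: Ebna1bp2, Fbl, Ncl, Nip7, Noc4l, Nop10, Pes1, Polr1a and Wdr12. For Fbl the pair was -0.0028 and 0.0080, for Ebna1bp2 -0.056 and 0.11, and for Nop10 -0.0050 and 0.13; for Noc4l the 3 ran from -0.22 to 0.011. Among the 54 members 18 had a difference smaller than 0.1 in size, 9 lay below -0.3, and 2 lay above 0.3, Myc and Imp3. The shares of all genes within or past these bounds were not computed. The difference was larger than the gap between arrays within each group for 18 members, 33.3% against 20.3% of all genes.

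**Figure D4:**
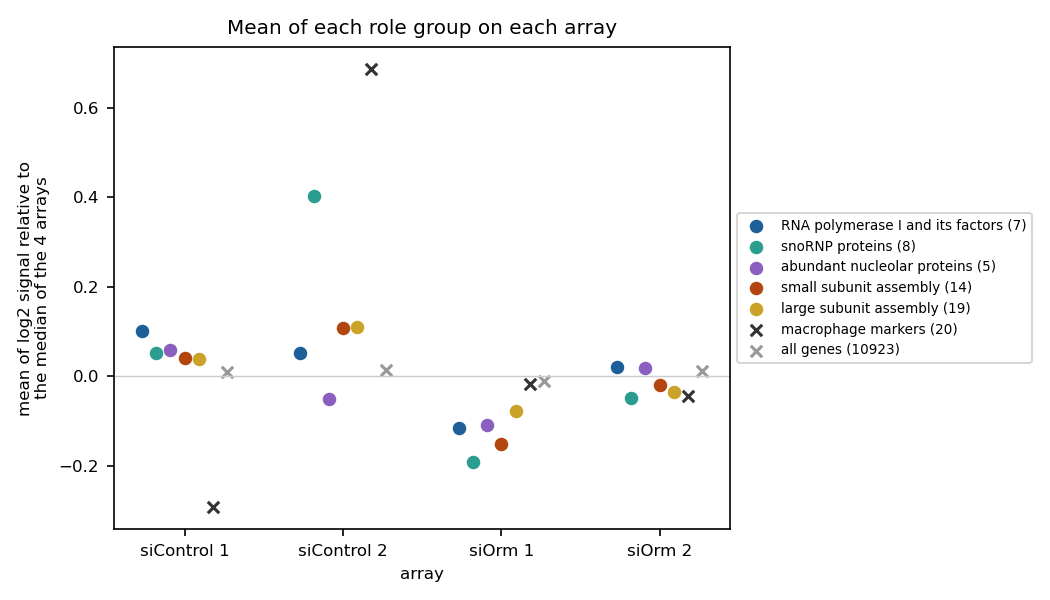
Mean log2 signal relative to the median of the 4 arrays (vertical axis) on each array (horizontal axis) for the role groups, the macrophage markers and all genes, with the number of genes in brackets. The snoRNP proteins stand highest in siControl 2 at 0.40, where the macrophage markers reach 0.69, and each of the 5 role groups shown has its lowest mean in siOrm 1 (Myc, not shown, is highest there).

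Other lists of the pathway were read against the same shares of all genes, 15.3% downwards and 17% upwards. Of 92 further symbols for ribosome assembly factors, 67 genes were measured; 25 were separated downwards (37.3%) and 7 upwards (10.4%), with a median difference of -0.074, and 0 passed in either direction. Gtpbp4, a GTPase of the large subunit, stood at 0.28 and 0.15 against -0.20 and -0.15 and differed by -0.38 (SE 0.13), and Pinx1, a nucleolar inhibitor of telomerase, by -0.39 (SE 0.16). Further RNA polymerase I factors had 2 of 12 separated downwards (16.7%, near the share of all genes) and 1 upwards, with Znrd1, a subunit of the enzyme, at -0.34 (SE 0.14) and Taf1b, of its promoter selectivity factor, at -0.30 (SE 0.17). The RNA exosome, which trims precursor ends, had 3 of 13 downwards (23.1%) and 0 upwards, with Exosc2 at -0.24 (SE 0.14) and Mphosph6 at -0.42 (SE 0.28).

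RNA polymerase III, which makes the smallest ribosomal RNA and transfer RNAs, had 0 of 14 genes separated downwards and 2 upwards, with a median of 0.0036. Polr3f differed by -0.47 (SE 0.27) and Maf1, a repressor of this enzyme, by 0.24 (SE 0.21), both with overlap. Growth enzymes known as MYC targets had 6 of 21 downwards (28.6%) and 2 upwards, with a median of -0.055. Odc1, the entry enzyme of polyamine synthesis, stood at 0.090 and 0.39 against -0.49 and -0.090 and differed by -0.53 (SE 0.19). Cad, which starts pyrimidine synthesis, stood at 0.12 and 0.27 against -0.92 and -0.12 and differed by -0.72 (SE 0.27). None of the genes of these other lists passed over all genes (limma, smallest adjusted p = 0.994).

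**Figure D5:**
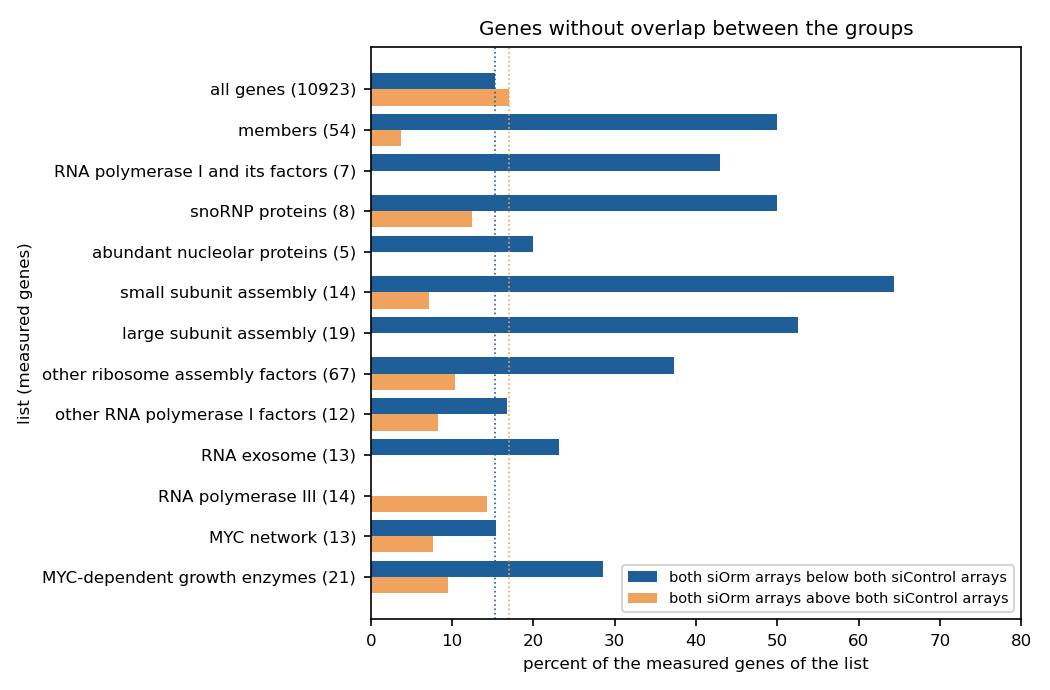
Percent of the measured genes of each list (horizontal axis) that were separated downwards (blue) or upwards (orange), with the number of genes in brackets; dotted lines mark the shares over all genes. Small subunit assembly reaches 64.3% below, the members as a whole 50% and the other ribosome assembly factors 37.3%, against 15.3% of all genes.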

How the data were processed

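RNA of 4 liver arrays was analysed from the table of processed values. Per the deposited values, each is a log2 signal from which the authors had subtracted the median of the 4 arrays for that probe set; no row median was farther from 0 than 4.8e-07. The software, the normalization between arrays, the filters and the logarithm's base were not given in the sources used here; base 2 was taken, and differences would grow 1.44 times if the base were e. The labels' protocols name an extraction from cultured cells and a labelling kit of another maker, so the laboratory steps are uncertain.

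Of 18852 probe sets, 17209 had 1 gene symbol in the platform annotation and gave 10923 genes; 564 had several symbols, 1044 were not listed and 35 were controls. Genes were tested two-sided, siOrm minus siControl, with limma 3.58.1 in R 4.3.3 (lmFit, eBayes with a constant variance prior of 3.6 degrees of freedom beside 2 residual ones) and Benjamini-Hochberg adjustment over all genes. The fit was also run on data simulated from its own variance model. Those data had equal spread on each array, so that run does not check the fit for these arrays. The number of arrays limits the precision. Members and lists were chosen with earlier results of these data known. Described with each array's value were Myc, the 4 members of smallest p and the largest positive difference in each role group, members whose probe sets disagreed (by probe set), and Npm1, Rrn3 and Fbl, added after their values were seen; the 2 genes of smallest p in each other pathway list are given by difference, and Gtpbp4, Odc1 and Cad also by array. Groups came from the titles. Alternatives were the variance prior, normalization, probe set rules, omission of each array and a replicate block.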

Additional observations from a re-analysis of the deposited data

How the results depend on the processing

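There were 12 alternatives. With a variance prior that follows the mean, 11 genes passed (0.101% of all), none of them a member. After quantile normalization 24 members were separated downwards (44.4% against 15.4% of all genes) with a median of -0.11. Shifting each array to a median of 0 gave 27 (50% against 16.2%) and -0.15. The median of probe sets gave 25 (46.3% against 15.2%) and -0.15. Leaving out probe sets ending in _s_at, _x_at or _a_at gave 23 of the 47 members left (48.9% against 14.8%) and -0.15. Fitted as 93 probe sets, 38 were separated downwards (40.9% against 15.8% of all probe sets fitted) and 5 upwards (5.38% against 16.7%). Older symbols added 0 probe sets. With any 1 array left out, 0 to 229 genes and 0 to 1 members passed; the 229 (2.1% of all genes) and the member, Nop58 at -1.86 (limma, adjusted p = 0.0256), came without siControl 1, where siControl 2 alone stands for its group and is assumed to vary like the siOrm arrays. Members separated downwards ranged from 27 to 42 and upwards from 4 to 9, counts that fewer arrays raise by construction, and the median ranged from -0.17 to -0.075.

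Of the 54 members, 32 lay below 0 with all arrays and with each array left out. In the same fits 2 (Imp3 and Nop10) lay above 0 in each case, and 20 turned sign with at least 1 array left out. For the 27 and 2 separated members the direction is fixed by that order, and the matching shares over all genes were not computed. Of the 24 members chosen by rule, 5 turned sign: Myc ranged from -0.051 to 1.20, Polr1d from -0.098 to 0.18, Ncl from -0.27 to 0.0067, Gnl3 from -0.19 to 0.34 and Noc2l from -0.060 to 0.26; the cause was not tested. In the other alternatives 0 of 163 values of these members turned sign. No label says that the replicate numbers shared by the groups mark a pairing; deviations of same-numbered arrays correlated at 0.132 over genes. With the number as a replicate block 0 genes and 0 members passed (limma, smallest adjusted p of a member = 0.475).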

Other observations

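Markers of other cells that liver tissue can hold are given as values. The mean over 13 neutrophil genes was 0.11 and 0.47 in siControl and -0.087 and -0.064 in siOrm. Of these genes, 6 were highest in siControl 2 and 5 in siControl 1. Over 17 endothelial and stellate genes it was -0.17 and 0.33 against -0.036 and 0.045, with siControl 2 highest for 12 of them. Over 13 lymphocyte genes it was 0.073 and -0.073 against 0.12 and -0.0045, over 5 erythroid genes -0.066 and -0.22 against 0.30 and 0.079, and over 6 cholangiocyte genes -0.048 and 0.089 against 0.0052 and 0.14. Over 16 hepatocyte genes it was -0.051 and -0.076 against 0.0038 and 0.064. The macrophage, endothelial and stellate, and neutrophil lists thus had their highest mean in siControl 2, as the members together did. Of the role groups, the RNA polymerase I genes and the abundant nucleolar proteins were highest in siControl 1. Their means there were 0.10 and 0.060, against 0.053 and -0.050 in siControl 2. The part of these cell markers in the results was not tested.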
